A study of Sus scrofa with 12 samples.

Results

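Glycogen is the branched glucose polymer that muscle stores as fuel, and 9 genes of its synthesis and breakdown were followed in the muscle of 12 pigs: PHKG1, PHKA1, PHKB, PYGM, UGP2, GYG1, GYS1, GBE1 and PGM1. They were chosen by name from knowledge of the pathway, but with earlier results of these data known. Each was looked for in the deposited count tables through the Ensembl gene ID that carries its symbol. Of these 9 genes, 7 were in the tables, among 20741 features, and all 7 passed the filter on low counts, as did 10627 features in all. PHKA1 and PGM1 are not analysed here. The 7 genes were PHKG1 (ENSSSCG00000007744), PHKB (ENSSSCG00000002844), PYGM (ENSSSCG00000013022), UGP2 (ENSSSCG00000008368), GYG1 (ENSSSCG00000011698), GYS1 (ENSSSCG00000003154) and GBE1 (ENSSSCG00000012000).

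The animals were labelled by drip, the fluid that meat loses after slaughter, as high (HI) in 6 and low (LO) in 6, with 3 females and 3 males at each level. The high drip animals were 167 to 186 days old and the low drip animals 172 to 189 days old, and the labels gave no genotype, breed or treatment for either group. Muscle mRNA of each animal was sequenced as 1 library, so an animal is the replicate. The question set by the labels is whether transcript levels differ between the drip groups, with sex balanced across them.

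In a muscle fibre, UDP-glucose pyrophosphorylase (UGP2) makes the activated glucose, glycogenin (GYG1) starts the chain, glycogen synthase (GYS1) lengthens it and the branching enzyme (GBE1) adds its branch points. Glycogen phosphorylase (PYGM) releases glucose units when the fibre needs fuel, and phosphorylase kinase, an assembly that holds catalytic gamma (PHKG1) and regulatory alpha (PHKA1) and beta (PHKB) subunits, switches the phosphorylase on in response to calcium and adrenergic signals. After slaughter the remaining glycogen is turned to lactate, which lowers the pH of the meat, and the fall in pH is a known influence on the water that meat holds.

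Each whole-genome table held between 8009627 and 12622043 gene counts, with a median of 9749102.5. For 3 females, 1 of high and 2 of low drip, the table recorded for the animal carried another animal's number, so every table was given to the animal whose number was in its name. A second table of 770 features from chosen chromosomal regions gave the same pairing in all 12 animals: 737 to 745 of its counts were identical to those of the table with the same number, and at most 167 to those of another table. Values for the 9 animals without this conflict are given beside several of the results. Liver transcripts were present in 6 libraries, 4 of high and 2 of low drip, with albumin (ALB) at 25.6 to 317 CPM (counts scaled to a fixed library total) of the whole table against 0.327 to 2.49 CPM in the other 6. The summed level of the 12 measured liver markers of 15 listed was 3.84 to 564 CPM at high and 3.27 to 94.0 CPM at low drip. All 3 high drip females and no low drip female were among those 6 libraries. The summed level of the 7 measured muscle fibre markers of 16 listed was 127928 to 155460 CPM at high drip and 125925 to 161798 CPM at low drip, and that of 3 slow fibre markers of 8 listed was 7212 to 9988 CPM and 6890 to 9641 CPM. In whole muscle a change in the number of cells of a type cannot be told apart from a change in RNA per cell.

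Levels below are CPM scaled by the trimmed mean of M-values over the tested features, and no level is set against that of another gene, because transcript lengths were not used here. Differences are log2 folds, high minus low drip, with the standard error of an edgeR quasi-likelihood fit that held sex as a term, and p-values were adjusted over all 10627 features by the Benjamini-Hochberg method with a threshold of 0.05.

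None of the 7 glycogen genes passed the adjusted test between high and low drip muscle, and neither did any other feature (0% of those tested by edgeR, and 0 also by DESeq2 and limma voom). Of the 7, the catalytic gamma subunit gene PHKG1 had the lowest unadjusted p, 0.0179, with a log2 fold of 0.31 ± 0.12. PHKB followed at 0.23 ± 0.11, and the 4 genes of synthesis had folds between 0.00 and 0.11. All 7 folds were above 0, as were 50.4% of all folds, with a median of 0.08 in the 7 genes and 0.00 over all features. One of the 7 had an unadjusted p under 0.05, against 3.43% of all features, which were 365 in number. The 7 genes share library and scaling, so their signs are not independent. In the 9 animals without a table conflict the drip folds of PYGM (−0.015), GYS1 (−0.070), GYG1 (−0.0014) and UGP2 (−0.088) were below 0. Those of PHKG1 (0.36), PHKB (0.22) and GBE1 (0.01) were above 0.

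**Figure D1:**
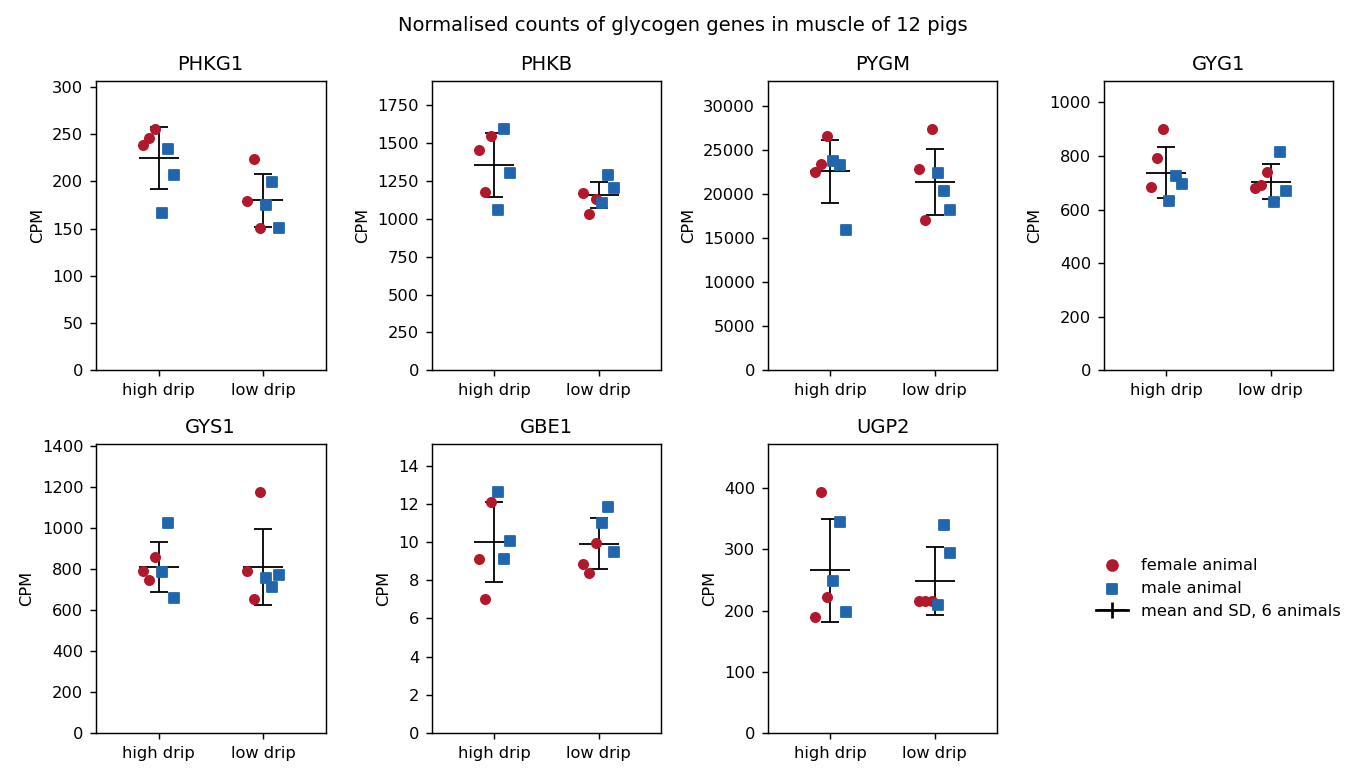
Level of each gene in CPM (vertical axis, from 0) in the 6 high and the 6 low drip animals, with 1 point per animal, red circles for females and blue squares for males, and a bar for the mean and SD of 6 animals. The groups overlapped for all 7 genes (0.113% of features had groups that did not), and 4 of 6 high drip animals lay above every low drip animal for PHKG1 and for PHKB.

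PHKG1 encodes the muscle form of the catalytic subunit of phosphorylase kinase. Its level in the high drip animals had a lowest value of 167 CPM, a median of 237 CPM and a highest of 255 CPM. In the low drip animals these were 150, 178 and 224 CPM. High drip replicates 1, 2, 3 and 5 lay above all low drip animals, while high drip replicates 4 and 6 lay within their range. The means were 225 ± 32.8 CPM (SD, n = 6) with high and 180 ± 28.4 CPM (SD, n = 6) with low drip, a log2 fold of 0.31 ± 0.12 with a 95% interval of 0.06 to 0.57. The adjusted p by edgeR was 0.999, so the difference did not pass the test over all features. An exact permutation test over the 924 regroupings of the 12 animals, two-sided and without sex as a term, gave p = 0.039, unadjusted. The same exact permutation test of the other 6 genes gave unadjusted p from 0.0693 for PHKB to 0.981 for GBE1.

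By sex, the 3 high drip females had 239, 246 and 255 CPM of PHKG1 and the 3 low drip females 151, 179 and 224 CPM, so the female groups did not overlap. The 3 high drip males had 167, 206 and 235 CPM and the 3 low drip males 150, 176 and 199 CPM, which overlapped. PHKG1 and PHKB were the 2 of 7 genes whose female groups did not overlap, against 6.91% of all features, and none of the 7 had male groups that did not overlap, against 9.64%. Fitted alone, the log2 fold was 0.42 ± 0.17 in females and 0.21 ± 0.16 in males. All 3 high drip females and no low drip female had libraries with liver transcripts, so drip and liver transcripts cannot be told apart in females. The 3 animals with a table conflict were also females. The product term of sex and drip was −0.21 ± 0.24 (edgeR, adjusted p = 1), with an interval of −0.72 to 0.31. This product was −0.52 ± 0.28 in the 9 animals without a table conflict and −0.49 ± 0.35 with liver transcripts as a term. It ran from −0.37 without low drip replicate 2 to −0.09 without low drip replicate 3 when 1 animal at a time was left out, and none of these values passed the edgeR test.

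Since liver transcripts were uneven over the groups, the PHKG1 difference was also fitted with and without them. Within the 6 libraries with liver transcripts the PHKG1 fold was −0.08 ± 0.23, and within the 6 without them it was 0.33 ± 0.28, neither past the edgeR test. With sex in those fits the first value rests on 1 high and 2 low drip males, and the second on 2 high drip males and 1 low drip male. With the liver transcripts as a term in all 12 animals the fold was 0.32 ± 0.13. PHKG1 itself was 209 ± 44.2 CPM with and 195 ± 32.0 CPM without liver transcripts (SD, n = 6 each, exact permutation p = 0.582, two-sided). Beyond these values, their part in the result was not tested. The PHKG1 fold was 0.36 ± 0.15 in the 9 animals without a table conflict. Leaving out 1 of the 12 animals at a time gave folds from 0.25, without low drip replicate 3, to 0.38, without high drip replicate 4. With every table given instead to the animal it was recorded for, the PHKG1 fold was lower, at 0.26 ± 0.13. Its interval was then −0.0067 to 0.53 (edgeR, unadjusted p = 0.0553).

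PHKB, the regulatory beta subunit of the same kinase, had a lowest value of 1058 CPM, a median of 1378 CPM and a highest of 1592 CPM in the high drip animals. In the low drip animals these were 1032, 1151 and 1288 CPM. High drip replicates 1, 3, 5 and 6 lay above every low drip animal, and 3 of these, replicates 1, 3 and 5, were also among the 4 that lay above for PHKG1. The means were 1355 ± 213 CPM (SD, n = 6) and 1156 ± 87.6 CPM (SD, n = 6), and the log2 fold was 0.23 ± 0.11, with an interval of −0.01 to 0.47 and an unadjusted p of 0.0597 (edgeR, adjusted p = 0.999). As for PHKG1, the sign turned within the libraries with liver transcripts, at −0.24 ± 0.24, against 0.39 ± 0.27 within those without. The fold was 0.33 ± 0.17 in females and 0.14 ± 0.16 in males, with a product term of −0.19 ± 0.23.

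The ratio of PHKG1 to PHKB counts within a library does not depend on scaling between libraries. Its log2 value was −2.59 ± 0.17 in high drip animals, from −2.76 to −2.25, and −2.69 ± 0.28 in low drip animals, from −3.00 to −2.20 (SD, n = 6 each). The ranges of the groups overlapped.

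PYGM, the muscle glycogen phosphorylase that the kinase activates, took between 1.72% and 2.55% of the counts in each library. Its level in the high drip animals had a lowest value of 15923 CPM, a median of 23373 CPM and a highest of 26692 CPM. In the low drip animals these were 17126, 21389 and 27408 CPM. The lowest PYGM value of all 12 was a high drip male and the highest a low drip female, so the low drip range reached past the high drip range at the top. The log2 fold was 0.08 ± 0.13, with an interval of −0.20 to 0.36, and −0.02 ± 0.14 when fitted to the 9 animals without a conflict. Leaving out 1 animal at a time gave PYGM folds from 0.0019, without low drip replicate 2, to 0.16, without high drip replicate 6.

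**Figure D2:**
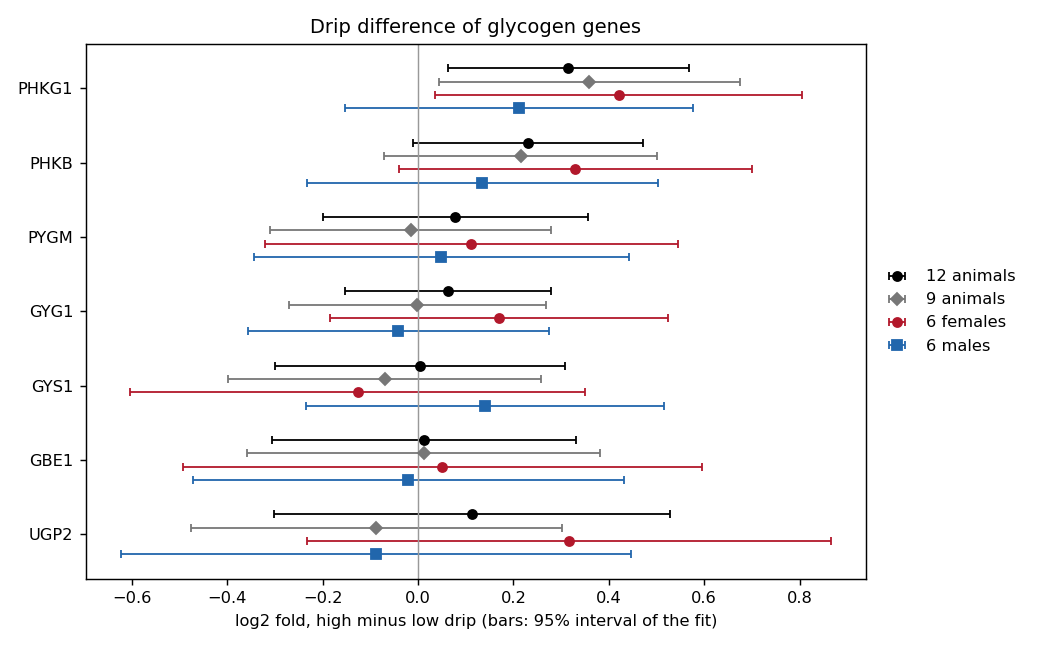
Log2 fold between high and low drip (horizontal axis, high minus low) of each gene in the fit to 12 animals, to the 9 animals without a table conflict, to 6 females and to 6 males, with bars for the 95% interval of the fit. The interval lay above 0 for PHKG1 in 12 animals (0.06 to 0.57), in 9 animals and in females, and it held 0 for the other 6 genes in each of the 4 fits.

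On the side of synthesis, UGP2, which makes UDP-glucose, had the widest spread between animals of the 7 genes, with 189 CPM in the lowest and 394 CPM in the highest. The high drip animals had a lowest value of 189 CPM, a median of 235 CPM and a highest of 394 CPM. The low drip animals had 208, 216 and 340 CPM. The 3 low drip females were almost level, at 215, 216 and 216 CPM, while the 3 high drip females, at 189, 222 and 394 CPM, covered the whole range. The fold was 0.11 ± 0.19, and it turned to −0.08 ± 0.15 without high drip replicate 2, the animal with the highest level.

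GYG1, the glycogenin that primes a new glycogen particle, had the narrowest spread, with a coefficient of variation of 11.1% over the 12 animals against 26.7% for UGP2. Its lowest, median and highest values were 632, 710 and 900 CPM in the high drip animals and 630, 686 and 815 CPM in the low drip animals. The fold was 0.06 ± 0.10, with an interval of −0.15 to 0.28, and 1 high drip animal lay above all low drip animals.

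GYS1, the muscle glycogen synthase, had means of 808 ± 123 CPM with high and 808 ± 186 CPM with low drip (SD, n = 6 each), and a fold of 0.00 ± 0.14 with an interval of −0.30 to 0.31. The lowest, median and highest values were 657, 786 and 1021 CPM in the high drip animals. In the low drip animals they were 650, 763 and 1174 CPM. In each group 1 animal stood above the other 5, high drip replicate 5 at 1021 CPM and low drip replicate 3 at 1174 CPM, and these were the 2 oldest of the 12 pigs, at 186 and 189 days.

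GBE1, the branching enzyme, had only 77 to 139 counts per library, so that counting error limits its values more than those of the others. Its lowest, median and highest values were 7.01, 9.59 and 12.6 CPM in the high drip animals and 8.37, 9.74 and 11.9 CPM in the low drip animals. The fold was 0.01 ± 0.15, with an interval of −0.31 to 0.33. The log2 ratio of GYS1 to GBE1 counts was 6.35 ± 0.36 with high and 6.33 ± 0.33 with low drip, and that of PYGM to GYS1 was 4.80 ± 0.20 and 4.74 ± 0.15 (SD, n = 6 each), so the balance of these genes differed between the groups by less than the spread between animals.

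Between males and females no glycogen gene passed the adjusted edgeR test, and no feature did (0%, with 6.28% of features, 667, at an unadjusted p under 0.05, and 2 calls by DESeq2). None of the 7 genes was among those at an unadjusted p under 0.05 in the fit to 12 animals. In the 9 animals without a table conflict PYGM had a sex fold of −0.31 ± 0.14 (edgeR, unadjusted p = 0.0495, adjusted p = 0.690). The folds over 12 animals, male minus female, ran from −0.18 ± 0.12 for PHKG1 and −0.18 ± 0.13 for PYGM to 0.18 ± 0.19 for UGP2 and 0.22 ± 0.15 for GBE1. GBE1 had 9.23 ± 1.71 CPM in females and 10.7 ± 1.38 CPM in males (SD, n = 6 each). The product of sex and drip was called for none of the 7 genes by edgeR and for no feature (0%, with 3.35% of features, 356, at an unadjusted p under 0.05, and 7 calls by DESeq2), and its value was above 0 for 1 of the 7 genes, GYS1, against 50.5% of all features. The GYS1 product was 0.27 ± 0.29 in the 12 animals and 0.64 ± 0.28 in the 9 without a table conflict (edgeR, unadjusted p = 0.0443, adjusted p = 0.770), and −0.01 without low drip replicate 3.

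Co-variation over animals was measured for the 21 pairs that 7 genes form. The log2 CPM correlated with a positive sign in 18 of the 21 pairs, with a median Pearson r of 0.15 and a range of −0.30 to 0.75, and no pair passed the permutation test after adjustment over the 21. The pairs share library and scaling, and with CPM of the table total in place of the TMM scaling 8 of the 21 signs changed and 10 pairs were positive. The median r of a single member with all tested features lay between −0.01 and 0.02.

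The closest pair was PYGM and GYS1, phosphorylase and synthase, at r = 0.75 and rho = 0.78 (permutation p = 0.00575 and 0.00454, two-sided, n = 12, adjusted 0.121 and 0.0953). Without the 2 animals farthest from the PYGM median r was 0.62. It was 0.61 within the 6 libraries with liver transcripts and 0.88 within the 6 without (exact permutation p = 0.174 and 0.0361), and 0.81 once the means of the 4 sex and drip groups were removed. Leaving out 1 animal at a time gave 0.69 to 0.78, and without high drip replicate 5 the pair passed the adjusted permutation test at 0.0246, while it did not pass under the other 14 alternatives.

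The subunit genes PHKG1 and PHKB had r = 0.58 and rho = 0.53 (permutation p = 0.0482 and 0.0794, n = 12, adjusted 0.441 and 0.507), and each of them had an r above 0.5 with GYG1 as well, 0.54 for PHKG1 and 0.52 for PHKB. PHKG1 and GYG1 had r = 0.69 in the libraries with and 0.06 in those without liver transcripts, and for PHKB and GYG1 these values were 0.60 and 0.38. Leaving out high drip replicate 3 gave 0.39 for PHKG1 and GYG1 and 0.30 for PHKB and GYG1. For PHKG1 and PHKB r was 0.63 without the 2 animals farthest from the PHKG1 median, 0.66 and 0.48 within the libraries with and without liver transcripts, and 0.89 in the 9 animals without a conflict. Once the means of the sex and drip groups were removed, r fell to 0.38 for PHKG1 and PHKB. It was then 0.37 for PHKG1 and GYG1 and 0.48 for PHKB and GYG1. PHKG1 and PYGM, the gene of the kinase's substrate, had r = 0.02 over all animals, with 0.70 in the libraries with and −0.62 in those without liver transcripts, neither past an exact permutation test (p = 0.125 and 0.190). GBE1 had the lowest values, r = −0.30 with PHKG1 and −0.25 with UGP2.

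**Figure D3:**
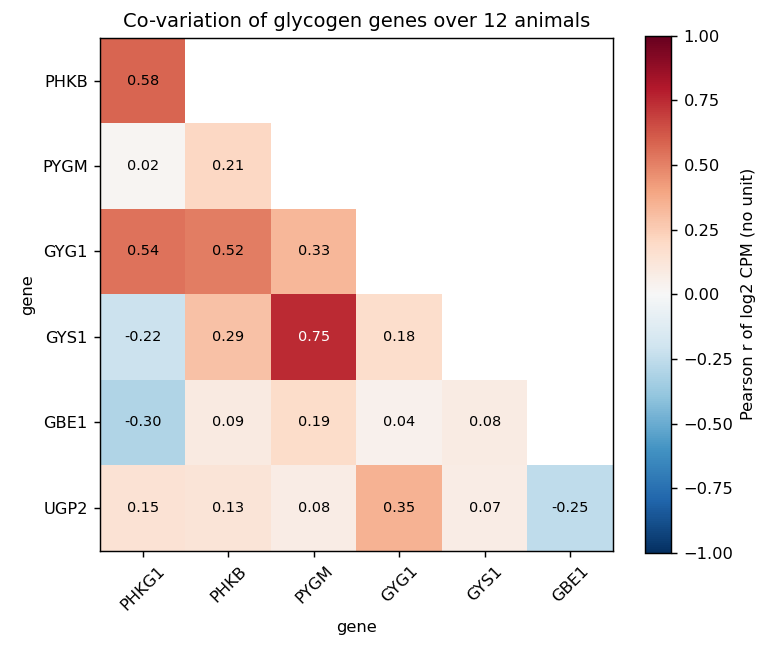
Pearson r of log2 CPM over 12 animals for each of the 21 pairs of glycogen genes, as a colour from −1 (blue) to 1 (red) with the value printed. PYGM and GYS1 have the highest value, and PHKG1, PHKB and GYG1 form 3 pairs above 0.5.

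By age, which the labels give in days, GYS1 and PYGM were the 2 of 7 genes with a slope at an unadjusted p under 0.05, a relation noticed after the values had been seen. The youngest pig, at 167 days, had a GYS1 level of 657 CPM and the 5 pigs of 172 and 173 days had 650 to 784 CPM. The 4 pigs of 179 and 181 days had 755 to 855 CPM. The pigs of 186 and 189 days had 1021 and 1174 CPM. The fitted GYS1 slope was a log2 difference of 0.37 ± 0.07 per 10 days, with sex and drip as terms, at an unadjusted p of 0.000232 and an adjusted p of 0.313 by edgeR, so it did not pass over all features. DESeq2 called it at an adjusted p of 0.00775, as 1 of 21 features with an age trend, 14 upward and 7 downward. edgeR called 0%, with 9.6% of features, 1020, at an unadjusted p under 0.05.

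The r of GYS1 with age was 0.94 in 6 females, 0.89 in 6 males, 0.94 in high and 0.88 in low drip animals. These groups hold the same animals in which the trend was noticed, and each includes 1 of the 2 oldest pigs. They are therefore no independent test of the trend. Over all 12 pigs r was 0.88 and rho 0.80 (permutation p = 7e-05 and 0.00252, two-sided, unadjusted, 7 genes examined). The age trends of GYS1 and, below, of PYGM were noticed in these same values, so no p-value given for them is an independent test. Without the 2 oldest animals, which were the 2 farthest from the median age, r was 0.72. For libraries that held liver transcripts, none of them from the 2 oldest animals, r was 0.77. For the rest, which include both of the oldest, it was 0.93 (exact permutation p = 0.0667 and 0.00833). The slope lay between 0.28 and 0.41 over the 20 alternatives tried, lowest without low drip replicate 3, and its adjusted p between 0.00775 and 0.908, with DESeq2 the one call.

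PYGM had a shallower age slope, 0.27 ± 0.09 per 10 days (edgeR, unadjusted p = 0.0095, adjusted p = 0.442), with 15923 CPM in the youngest pig and 27408 CPM in the oldest. Its r with age was 0.75 and its rho 0.64 (permutation p = 0.00474 and 0.0268, unadjusted), 0.72 without the 2 oldest, and 0.63 and 0.97 within the libraries with and without liver transcripts. With a line on age removed from both genes, the r of PYGM and GYS1 was 0.27 in place of 0.75. For the other 5 genes r with age lay between −0.11 and 0.30. The PHKG1 correlation with age had opposite signs in the sexes, at r = −0.73 in females and 0.41 in males, a difference that was not tested. The mean ages of the drip groups were 176 ± 6.92 and 178 ± 6.74 days (SD, n = 6 each), and with age as a term the PHKG1 drip fold was 0.31 ± 0.12 and the PHKB fold 0.24 ± 0.11, neither past the edgeR test (adjusted p = 0.989 for both).

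**Figure D4:**
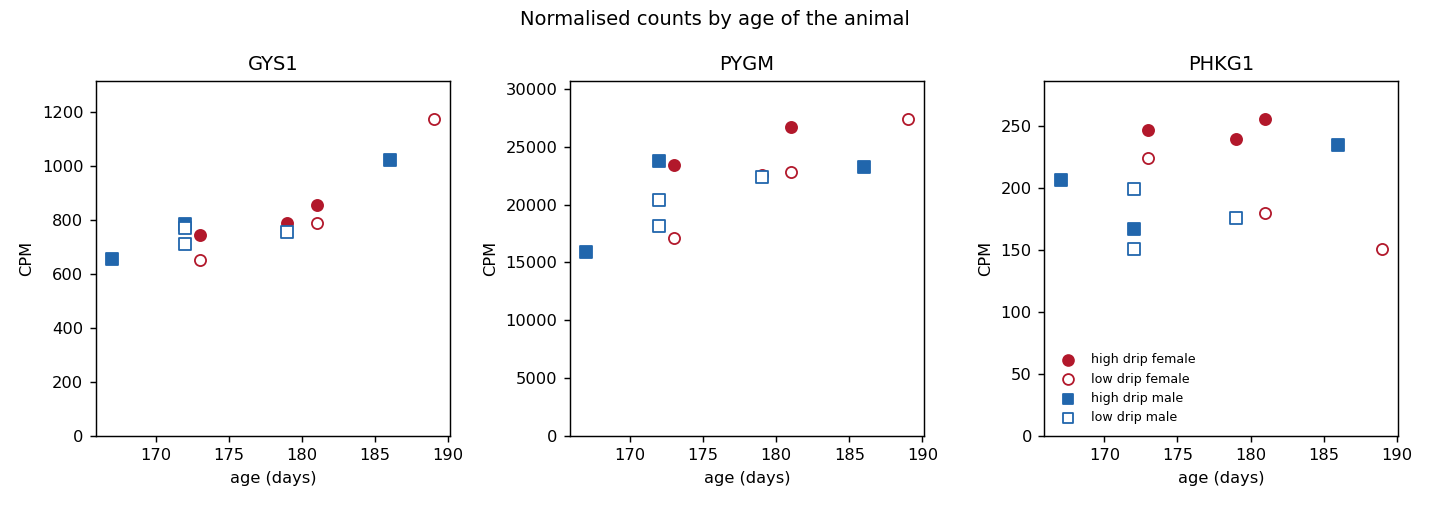
Level in CPM (vertical axis, from 0) of GYS1, PYGM and PHKG1 against the age of the animal in days, with 1 point per animal, filled for high and open for low drip, circles for females and squares for males. GYS1 lay between 650 and 855 CPM up to 181 days and above 1000 CPM in the 2 oldest animals, 1 of each drip group.

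Among all tested features with a symbol, those most like a glycogen gene over the 12 animals were found by Pearson r of log2 CPM, as a description. They are the highest values of a wide search in few animals, and how high such values run by chance was not computed. GYS1 was most like ATG9A, an autophagy membrane protein (r = 0.93), ATP2A1, the calcium pump of fast fibres (r = 0.91), and ZER1 (r = 0.89). ATP2A1 also had an age slope, of 0.31 ± 0.08 per 10 days (edgeR, unadjusted p = 0.00126, adjusted p = 0.386). The part of age in its likeness to GYS1 was not tested. PYGM was most like OGDH, a citrate cycle enzyme (r = 0.91), CDC37, a chaperone of protein kinases (r = 0.90), and FN3K (r = 0.88), with GYS1 in 69th place among all features. PHKG1 was most like NDRG3, UBE2Q1 and CEP250 (r = 0.85, 0.84 and 0.82), with PHKB in 126th place. PHKB was most like CHCHD1, ZFYVE9 and MED28 (r = 0.87, 0.81 and 0.81). GYG1 was most like KPNA1, SYNE2 and DCP2 (r = 0.88, 0.84 and 0.82), and GBE1 like PLCL1, PRMT9 and GSTM3 (r = 0.86, 0.85 and 0.83). UGP2 was most like ALDH1A1, SLC25A4, the muscle ADP/ATP carrier, and TSPAN18 (r = 0.85, 0.81 and 0.81).

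The wider pathway was read from a list of 57 further genes of glycogen handling, its control by phosphatase and kinases, and glucose entry, of which 38 were in the tables and 37 passed the filter. PPP1CA, a catalytic subunit of protein phosphatase 1, had at most 2 counts in a library and did not pass. Between the drip groups none of the 37 passed the adjusted edgeR test and none had an unadjusted p under 0.05, with 18 folds above and 19 below 0 and a median of 0.00.

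Of the genes that act beside the 7, PHKG2, the catalytic kinase subunit best known from liver, was at 4.52 to 7.24 CPM with a fold of 0.10 ± 0.15. The glycogen targeting subunits of protein phosphatase 1 that are known for muscle and other tissues, PPP1R3A and PPP1R3C, had folds of 0.00 ± 0.15 and −0.32 ± 0.49, and PPP1R3C varied between animals from 120 to 738 CPM. The kinases that restrain glycogen synthase, GSK3A and GSK3B, had folds of 0.03 ± 0.10 and −0.03 ± 0.15.

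On the side of glucose entry, the transporter gene SLC2A4 had a fold of −0.17 ± 0.19 at 5.29 to 11.4 CPM, and the hexokinase gene HK2 a fold of 0.49 ± 0.48, with 42.1 ± 33.5 CPM with high and 29.8 ± 11.6 CPM with low drip (SD, n = 6 each). SLC2A4 had negative correlations with the kinase subunits and glycogenin over the 12 animals, with r = −0.72 with PHKG1, −0.81 with PHKB and −0.71 with GYG1, values picked as the lowest in the list and given as a description. PRKAG3, the muscle regulatory subunit of AMP-activated kinase known for its influence on pig muscle glycogen, had a fold of 0.15 ± 0.24. Its product term of sex and drip was 1.15 ± 0.33 (edgeR, unadjusted p = 0.00381, adjusted p = 1), the fold being that much higher in males than in females.

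In the sex comparison 4 of the 37 pathway genes had an unadjusted p under 0.05, against 6.28% of all features, and none passed the adjusted test. The phosphatase targeting genes PPP1R3A and PPP1R3G had folds, male minus female, of 0.38 ± 0.15 and 0.67 ± 0.19, PRKAG2, another subunit of AMP-activated kinase, 1.03 ± 0.39, and the insulin signalling kinase AKT2 −0.29 ± 0.11. By age, 5 of the 37 had an unadjusted p under 0.05, against 9.6% of all features, 2 with a slope above and 3 with a slope below 0, and none passed. The 2 above were GSK3A, at 0.17 ± 0.07 per 10 days, and GPI, which interconverts glucose 6-phosphate and fructose 6-phosphate, at 0.23 ± 0.08. The 3 below were PRKAR1A, a regulatory subunit of protein kinase A, at −0.34 ± 0.09, PRKAG2 at −0.76 ± 0.28 and GYS2, the glycogen synthase known from liver, at −1.90 ± 0.69 with at most 32 counts in a library. These sex and age genes, apart from PPP1R3A and GSK3A, were picked after their values were seen.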

How the data were processed

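Raw counts per gene, 1 whole-genome and 1 region table per animal, were deposited by the authors. Per the submitters' processing notes, TopHat2 2.0.3, Bowtie 0.12.7.0 and HTSeq were used with the pig build Sscrofa10.2. Parameters, strand setting and annotation release are not given in the sources used here, so reads of overlapping and antisense genes cannot be told apart. Summary rows were left out of library sizes, and reads in no feature came to 28.6% to 34.3% of those aligned to 1 place in each library.

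Symbols were matched exactly to gene IDs, naming 10349 of 20300 Ensembl genes. Counts were fitted with edgeR 4.0.16 in R 4.3.3 (TMM, filterByExpr, robust quasi-likelihood F-test, two-sided, sex and drip as terms). DESeq2 1.42.0, limma 3.58.1 voom, other scaling and filters, subsets and left-out animals were alternatives. Log2 CPM used a prior count of 2. Correlations used 100000 permutations, in scipy 1.17.1, and 6-animal subsets all orders. The fits were also run on simulated data, with set changes larger than the drip folds of the glycogen genes. That run cannot show whether folds of the size reported here would be called, and its outcome is not given.

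The genes named are the 7 measured members, a fixed set of pathway genes, and the 3 most alike per member. Of the pathway genes that this rule names, 2 are not reported here. The members and lists were chosen with earlier results of these data known, and the age trend was added after seeing the values.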

Additional observations from a re-analysis of the deposited data

Results flagged for a closer look

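The GYS1 level of low drip replicate 3, at 1174 CPM, lay far from the other 5 low drip animals, whose highest value was 788 CPM. This female was the oldest of the 12 pigs, at 189 days. A gap just large enough to be flagged is met by chance in about 1 group in 20, and 14 groups of 6 animals were looked at. The chance of a gap of this size was not computed.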

How the results depend on the processing

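For PHKG1 and PHKB the drip folds kept their sign in 24 of 25 alternatives each, and none of the 7 genes was called for drip, sex or the product of both under any alternative. No paired analysis was possible because the labels number no replicates, and the replicate numbers used here only name the animals of a group in accession order. Libraries with liver transcripts alone gave drip folds of −0.075 for PHKG1, −0.24 for PHKB, −0.24 for GYG1 and −0.36 for UGP2, and sex folds of −0.40 for PHKB and −0.11 for UGP2. Libraries without them gave drip folds of −0.19 for PYGM and −0.20 for GBE1, and sex folds of −0.014 for PHKB and −0.059 for UGP2. In the 9 animals without a table conflict the drip folds were −0.015 for PYGM, −0.070 for GYS1, −0.0014 for GYG1 and −0.088 for UGP2, the sex fold of PHKB −0.088 and the product of PYGM 0.19, with age slopes of 0.012 for PHKG1, −0.028 for GYG1, −0.11 for GBE1 and 0.17 for UGP2. With the recorded labels the drip folds were −0.052 for PYGM, −0.050 for GYS1 and −0.24 for UGP2, the products 0.20 for PYGM and 0.31 for UGP2, and the age slopes 0.046 for PHKG1 and 0.17 for UGP2. In females alone the drip fold of GYS1 was −0.13, and in males alone the folds were −0.041 for GYG1, −0.021 for GBE1 and −0.088 for UGP2. Without sex as a term the drip fold of GYS1 was −0.00035, and with limma voom that of GBE1 was −0.011. With liver transcripts as a term the drip fold of GBE1 was −0.030, its product 0.16 and the age slope of UGP2 0.085. With age as a term the sex fold of GYS1 was 0.092, and with age alone the slope of GBE1 was −0.018.

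Leaving out 1 animal at a time, the drip folds ran from −0.095 to 0.15 for GYS1, −0.080 to 0.087 for GBE1 and −0.081 to 0.21 for UGP2. The sex folds ran from −0.049 to 0.081 for PHKB and −0.19 to 0.049 for GYS1. The products ran from −0.23 to 0.11 for PYGM, −0.012 to 0.44 for GYS1 and −0.25 to 0.14 for GBE1. The age slopes ran from −0.21 to 0.059 for PHKG1, −0.0065 to 0.046 for GYG1 and −0.32 to 0.16 for UGP2. Over all features, 3 passed for drip in the libraries without liver transcripts. For sex 1 passed with no filter, 2 by DESeq2, 3 in libraries with and 8 in those without liver transcripts. For the product of sex and drip 7 passed by DESeq2 and 1 with liver transcripts as a term, and for age 21 passed by DESeq2. Of the pairs, 0 to 1 passed when 1 animal was left out, the 1 without high drip replicate 5. The cause of these changes was not tested. Age alternatives were added after seeing the data. Counting error limits GBE1, at 77 to 139 counts per library.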

Other observations

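SLC37A4 and GPI, pathway genes outside the rule for named genes, lay close to PYGM over the 12 animals and were picked after their values were seen. SLC37A4, the glucose 6-phosphate transporter, had r = 0.84 with PYGM, and GPI had r = 0.82 with PYGM and 0.84 with GYS1. Neither differed past the edgeR test between the drip groups, with folds of 0.06 ± 0.14 and −0.03 ± 0.11. The highest and the lowest drip fold in the pathway list, also picked after the fact, were 0.52 ± 0.34 for PPP1R3B, a glycogen targeting subunit of protein phosphatase 1, with 130 ± 53.1 CPM with high and 91.6 ± 38.8 CPM with low drip (SD, n = 6 each), and −0.37 ± 0.21 for INSR, the insulin receptor, neither past the test.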
